A study of Mus musculus with 15 samples.

Results

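The 45S copy is the stretch of chromosome 17 that represents the mouse ribosomal RNA precursor Rn45s in the mm9 genome. It was taken as the plus strand from 39979900 to 39985800, and every HITS-CLIP tag with its midpoint there was counted. The locus was chosen on measured values, as the place of the densest tag clusters of WT forelimb and C2C12 and of clusters that gained tags in ΔE2 in earlier results of these data. HITS-CLIP crosslinks RNA to a bound protein with ultraviolet light, precipitates the protein with an antibody and sequences the attached RNA as short tags. The antibody was Mb3/7, raised against the muscleblind protein Mbnl3, an RNA-binding regulator of splicing. Along the copy lie 24 bins of 250 nt, out of 453907 stranded bins of that size that held a CLIP tag anywhere in the genome. The copy held 8515 of the 400770 tags listed in the 6 forelimb libraries, and 2936 of the 550124 distinct tags of C2C12 cells.

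The forelimb libraries came from BL6 mouse embryos of 15 days post coitum, either homozygous for the Mbnl3 ΔE2 allele (delta-E2/delta-E2, titled Mbnl3 KO) or wild type (WT), with 3 libraries per genotype. The growth protocol names female mice. Each forelimb library pooled 4 forelimbs of 2 embryos, so that embryos cannot be separated. C2C12 is a mouse myoblast line, grown here in DMEM with 20% serum, and its 3 libraries were deposited as 1 combined file. All of these lysates were denatured in SDS before precipitation, and both high and low RNase A were used. The forelimb RNA-seq of the series was made from polyA RNA and is a table of exons, so ribosomal RNA amounts were not measured. Whether the labelled tissue and genotype are borne out by marker genes or by tags at Mbnl3 was not analysed here, since no mm9 annotation was used.

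RNA polymerase I transcribes ribosomal RNA in the nucleolus as one long precursor, from arrays of near-identical repeats. The precursor begins with an external spacer, followed by the 18S rRNA, an internal spacer, the short 5.8S rRNA, a further internal spacer and the 28S rRNA. Spacers are cut away and degraded, and the mature RNAs make up most of the RNA of a cell. Tags placed on the assembled copy can therefore have come from any of the repeats. The RefSeq gene table used here is of another build and lists a pseudogene related to the 18S rRNA, Rn18s-rs5, on chromosome 17. Its position was not carried over to mm9, so that no bin was assigned to 18S rRNA or to a spacer.

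Libraries held 35413 to 124309 tags. ΔE2 replicates 2 and 3 shared 83.7% and 57.4% of their molecules, meaning tags of the same position, strand and barcode, and 93.6% and 79.1% of those on the copy. They were counted as 1 library, called ΔE2 2+3, and are also given as labelled. Among the other 14 pairs of forelimb libraries, 1.45% to 32.4% of a library's molecules were shared, and 6.34% to 31.4% of those on the copy. These include 30.1% of ΔE2 replicate 1 found again in WT replicate 3, across the genotypes. Every forelimb library had its own lanes of a single sequencing run, lanes 1 to 3 for WT and 5 to 8 for ΔE2. The deposited designations carry the number 27 for ΔE2 and 37 for WT and C2C12, which no label explains. In the forelimb, lane and number both follow genotype and cannot be told apart from it.

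Among windows of its length on a grid from its own start, the copy held the most tags in every library. It had been chosen for its dense clusters. Tags on it made up 2.45% of all tags in ΔE2 replicate 1, 3.58% in replicate 2 and 2.91% in replicate 3, or 2.76% in ΔE2 2+3. In WT libraries they made up 2.58%, 1.49% and 1.35%. The WT library with the fewest tags, replicate 1, lay above ΔE2 replicate 1, so the genotypes overlapped. Means were 2.60% ± 0.219 in ΔE2 (SD, n = 2) and 1.81% ± 0.675 in WT (SD, n = 3). The difference of 0.792 percentage points was close to the SD of the WT libraries, and was 1.17 with the 6 libraries as labelled. Because the locus was chosen from this contrast, the difference is given as a description without a test. In bulk tissue, fewer cells of a type and less RNA per cell cannot be told apart.

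Pooled C2C12 tags on the copy made up 0.534% of all tags (95% Wilson interval 0.515 to 0.553), below each forelimb library. The log2 ratio of the C2C12 share to the mean WT share was -1.76, from 1 pooled set without replicates. The C2C12 file marks its lines with 3 display colours that carry no replicate label, and no molecule repeats within a colour. The share was 0.902%, 1.09% and 0.526% in the 3 colours, and 0.694% with all lines counted. Repeated lines were 37.6% of those on the copy and 18.8% of all. Molecules shared between WT libraries were not removed, so the 2 sides of the ratio are counted unlike. The log2 ratio was -1.38 with all C2C12 lines, and -1.64 with each shared forelimb molecule given to 1 library. It was -0.61 with tags of 26 to 30 nt, the lengths of all C2C12 tags. Intervals cover counting error only, since tags from one PCR are not independent molecules.

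**Figure D1:**
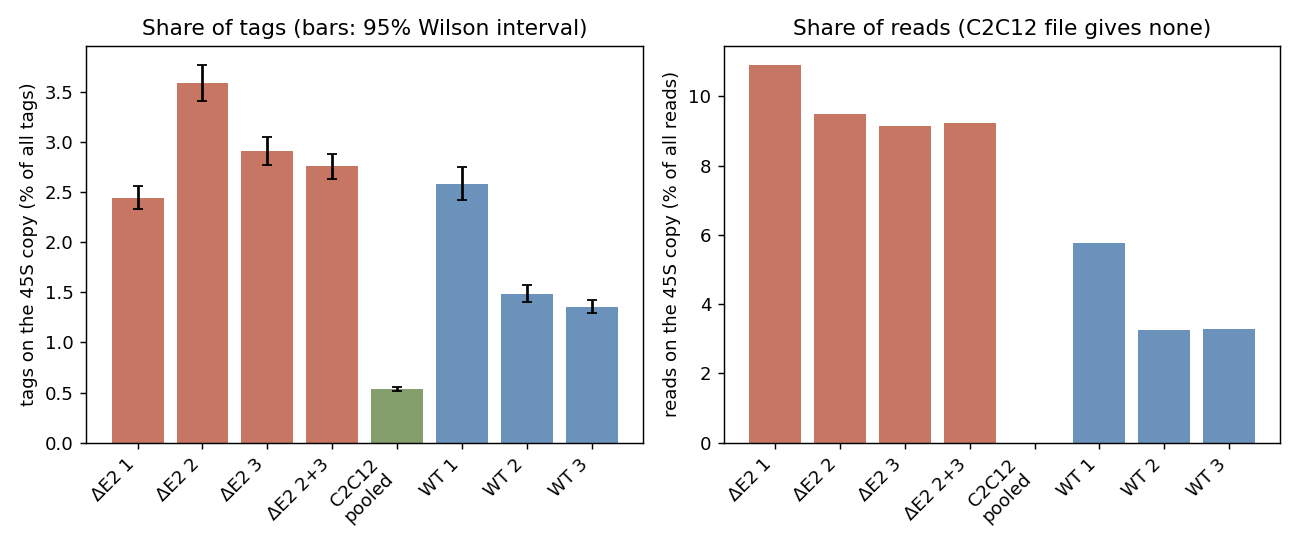
Left, tags on the 45S copy as a percent of all tags in each library, with 95% Wilson intervals; right, the same for reads. ΔE2 libraries are red, pooled C2C12 green and WT blue; by tags ΔE2 replicate 1 lies below WT replicate 1, while by reads all ΔE2 libraries lie at 9.13% or more and all WT libraries at 5.77% or less.

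Signal on the copy was on 1 strand and had sharp limits. The opposite strand held 1 tag in ΔE2 replicate 1 and 0 in each other library, C2C12 included, where a count of 0 allows up to 3 tags. No library had a plus-strand tag in the 5900 nt before the copy or in the 5900 nt after it. Stranded windows of 5900 nt were laid on a grid from the start of the copy. Among those that held a tag, 19286 to 137601 per library, the copy ranked 1 in each. In ΔE2 replicate 1 it held 3.06 times, in ΔE2 2+3 3.83 times and in pooled C2C12 2.52 times the tags of the next window. In the WT libraries the ratios were 3.86, 2.40 and 1.96. The forelimb libraries had 4 or 5 bins of the copy among their 10 densest bins, and C2C12 had 6. These ranks and ratios restate in part the choice of the locus by its dense clusters, so they are a description only.

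Reads separated the genotypes more widely than tags did. Forelimb files give the number of reads behind each tag. Reads on the copy were 10.9% of all reads in ΔE2 replicate 1, 9.49% in replicate 2 and 9.13% in replicate 3, against 5.77%, 3.24% and 3.28% in the WT libraries. Counted as 1 library, ΔE2 2+3 had 9.24%. The lowest ΔE2 value lay above the highest WT value. The locus was chosen from this contrast, so this is a description without a test. A tag on the copy had a median of 23, 144.5 and 185 reads in the ΔE2 libraries, against 6, 9 and 10.5 in WT. Tags elsewhere had medians of 2, 6 and 3 in ΔE2 and 2, 3 and 2 in WT. Mean reads per tag on the copy were 430, 708 and 1345 in ΔE2 and 160, 200 and 150 in WT. Tags elsewhere had means of 88.1, 251 and 401 in ΔE2 and 69.3, 89.9 and 60.6 in WT. By means, ΔE2 replicates 2 and 3 thus had more reads per tag than any WT library off the copy too. On the copy 9.14% to 14.1% of ΔE2 tags rested on 1 read, against 13.4% to 18.6% of WT tags. Elsewhere, 31.3% to 45.2% of ΔE2 tags and 39.1% to 47.7% of WT tags did.

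The same start and end recurred on the copy with many barcodes. Each forelimb barcode has 5 bases of which the last is always G, which leaves 256 combinations. Tags per distinct position on the copy were 2.83 in ΔE2 replicate 1 and 3.10 in ΔE2 2+3, against 1.98, 2.18 and 2.71 in WT. Off the copy they were 1.03 to 1.04 in all of these. The most crowded position held 90 tags in ΔE2 replicate 1 and 88 in ΔE2 2+3, against 27, 42 and 64 in WT. Counted once per position, the copy's share was 0.906% and 0.942% in these ΔE2 libraries, against 1.37%, 0.710% and 0.526% in WT. The difference between the means was then 0.0549 percentage points, and the genotypes overlapped. Tags whose barcode lay 1 base from that of a tag at the same position with at least 10 times the reads were 7.60% in ΔE2 replicate 1 and 7.56% in ΔE2 2+3. In WT they were 2.51%, 3.26% and 5.29%. Without such tags, a count added after the data were seen, the difference was 0.661 percentage points. The part of reads per tag in the difference was otherwise not tested.

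**Figure D2:**
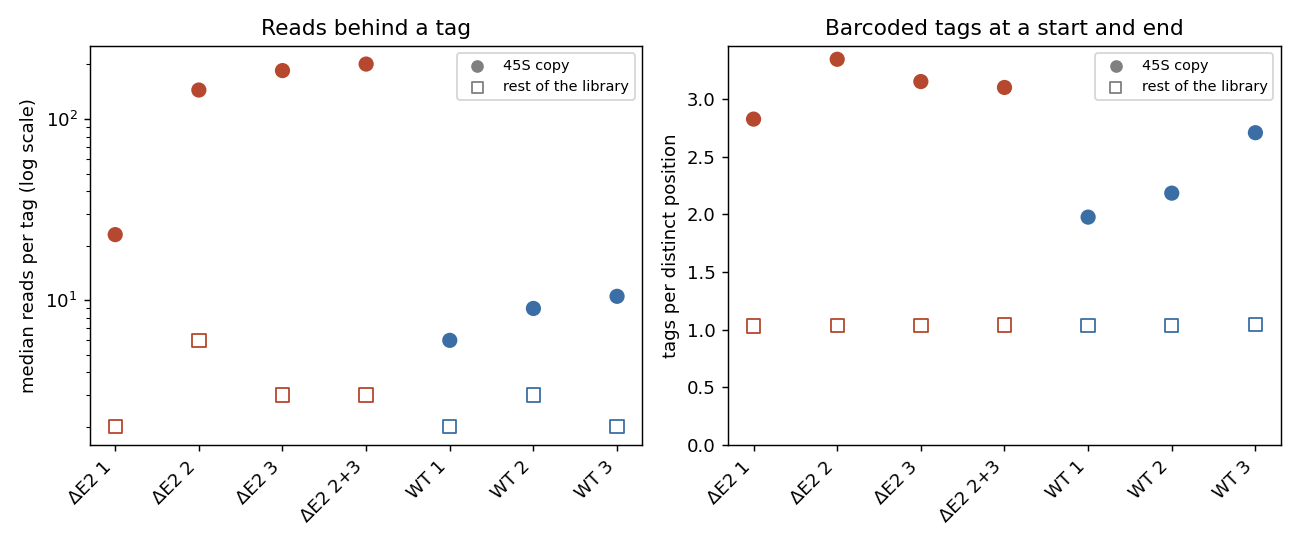
Left, median reads per tag (log scale) and right, barcoded tags per distinct start and end, for tags on the 45S copy (filled circles) and in the rest of each library (open squares). ΔE2 libraries (red) stand left of WT libraries (blue); on the copy the ΔE2 medians run from 23 to 201 reads and the WT medians from 6 to 10.5, while tags per position off the copy lie near 1 throughout.

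Tags lay unevenly along the copy. A stretch of 7 bins, from 39983400 to 39985149, held 93.8% to 94.8% of the copy's tags in the compared forelimb libraries and 78.8% in C2C12. It is the run of bins with over 2% of the WT tags each, a limit set after the profile was seen. The 3500 nt before it held 84 tags in ΔE2 replicate 1 and 95 in ΔE2 2+3, 536 in C2C12, and 51, 54 and 85 in WT. Tag density in the stretch was 37.1, 35.9, 8.63, 33.6, 38.7 and 37.4 times that before it, in the same order of libraries. After the stretch, 4, 10, 87, 6, 3 and 8 tags remained up to the end of the copy. Every bin of the copy held at least 1 forelimb tag.

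The region before the stretch held 1249 and 1445 tags per 1000000 of all tags in ΔE2 replicate 1 and ΔE2 2+3, 974 in C2C12 and 1440, 729 and 684 in WT. The C2C12 value lay below both ΔE2 values and WT replicate 1, and above WT replicates 2 and 3. In the stretch itself, C2C12 had 4205 per 1000000, below the 12783 of the lowest WT library. Of the copy's tags, 18.3% in C2C12 and 4.90% to 5.57% in WT lay before the stretch. All C2C12 tags are 26 to 30 nt long, and among forelimb tags of that length the shares were 16.98% and 15.2% in ΔE2 and 8.99%, 13.8% and 15.0% in WT, nearer to the 18.3% of C2C12.

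Within the stretch, the densest WT bin was at 4000 to 4250 nt from the start of the copy. It held 33.1% of the copy's tags in ΔE2 replicate 1 and 31.8% in ΔE2 2+3, 4.46% in C2C12 and 23.1%, 22.0% and 25.7% in WT. The next bin in WT, at 4500 to 4750 nt, went the other way. It held 13.7% and 13.6% in ΔE2, 22.8% in C2C12 and 21.4%, 20.3% and 18.7% in WT. The bin at 3500 to 3750 nt held 13.9% and 15.2% in ΔE2, 12.3% in C2C12 and 18.5%, 18.9% and 16.3% in WT. At 4750 to 5000 nt the forelimb values lay close together, at 14.9% and 14.6% in ΔE2 and 15.0%, 14.3% and 15.2% in WT, with 19.7% in C2C12. The fifth bin of WT, at 5000 to 5250 nt, held 5.41% and 4.69% in ΔE2, 8.99% in C2C12 and 7.43%, 7.80% and 6.84% in WT. The fifth bin of C2C12, at 4250 to 4500 nt, held 7.23% and 8.95% in ΔE2, 6.91% in C2C12 and 5.03%, 7.43% and 6.72% in WT.

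**Figure D3:**
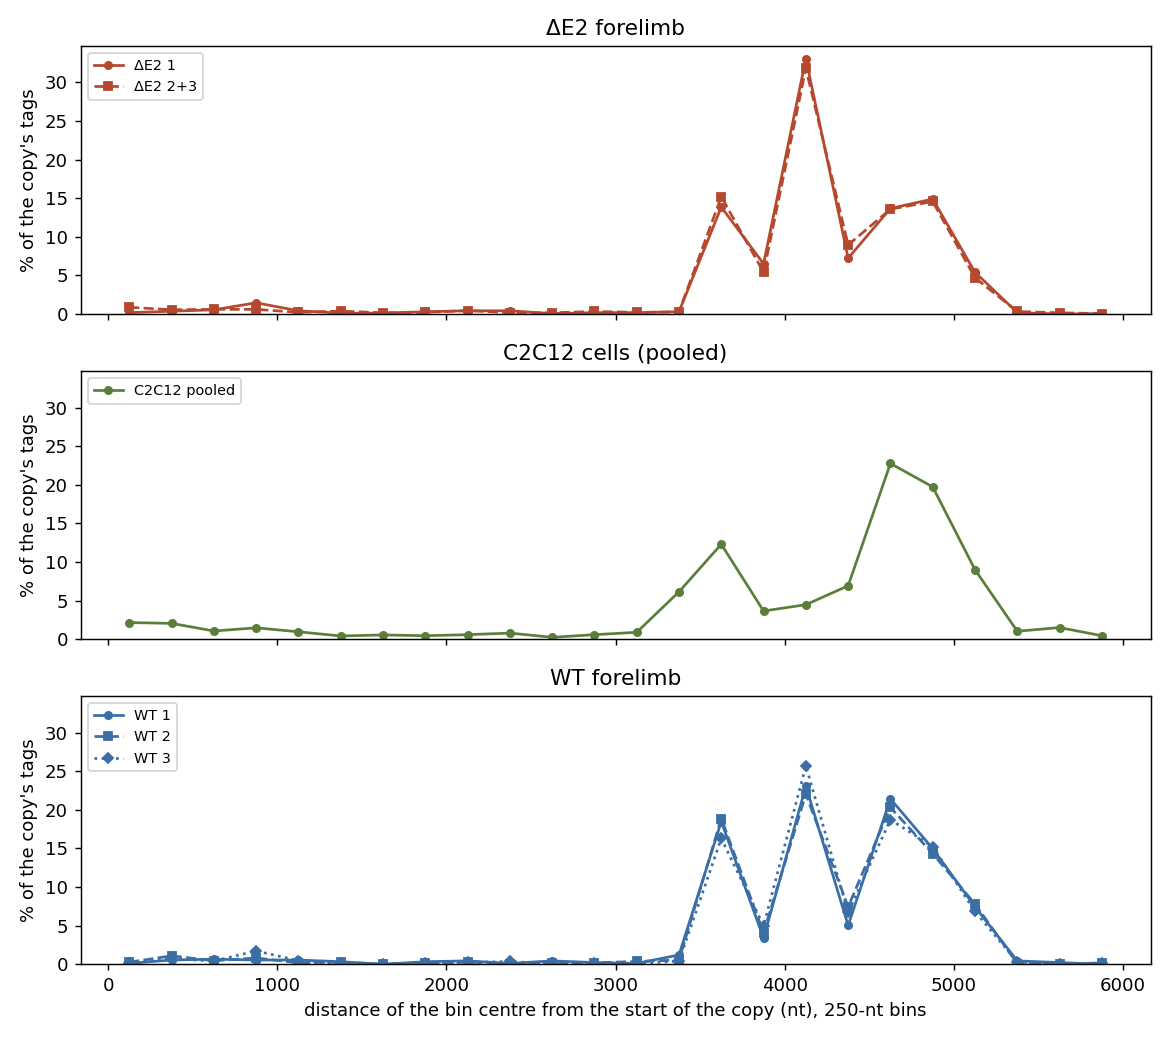
Percent of the copy's tags in each 250-nt bin, by distance of the bin centre from the start of the copy, for ΔE2 forelimb (red, top), pooled C2C12 (green, middle) and WT forelimb (blue, bottom). All sets are low up to 3250 nt; ΔE2 and WT peak in the bin at 4000 to 4250 nt, at 31.8% to 33.1% and 22.0% to 25.7%, where C2C12 holds 4.46%.

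Profiles were nearly alike within a genotype. Over the 24 bins, Pearson's r between libraries was 0.997 for the 1 ΔE2 pair, 0.989 to 0.996 for the 3 WT pairs and 0.925 to 0.971 for the 6 pairs of 1 ΔE2 and 1 WT library. It was 0.744 to 0.799 between C2C12 and the WT libraries, and 0.579 to 0.593 between C2C12 and the ΔE2 libraries. These values depend on which tags are counted. With libraries summed by group and each position counted once, r was 0.981 between ΔE2 and WT and 0.897 between C2C12 and WT. With tags of 26 to 30 nt it was 0.745 between ΔE2 and WT and 0.741 between C2C12 and WT. Of these tags, 31.8% and 31.9% were placed differently. They number 53 and 46 on the copy in ΔE2 and 89, 65 and 100 in WT, against 2936 in C2C12. Sparse counts can by themselves lower r, so these 2 distances from WT are not ranked. The points are bins of 1 locus, the 7 dense ones set most of the value, and some libraries share molecules, so no p is attached. As another measure, 10.2% to 16.9% of tags would have to change bin to turn a WT profile into a ΔE2 profile, against 4.92% between the ΔE2 libraries and 5.26% to 8.01% between WT libraries.

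A single 50-nt step of 5′ ends, from 39984100 to 39984149, was examined within the densest bin. It was chosen as the step with the most WT 5′ ends. Tags that began in it numbered 563 in ΔE2 replicate 1 and 617 in ΔE2 2+3, 131 in C2C12 and 208, 238 and 425 in WT. They were 34.2% and 34.1% of the copy's tags in ΔE2, 4.46% in C2C12 and 22.7%, 21.6% and 25.3% in WT. In level, the step had 8878 ± 720 tags per 1000000 in ΔE2 (SD, n = 2) and 4168 ± 1481 in WT (SD, n = 3), a ratio of 2.13. The rest of the copy had 17124 ± 1473 per 1000000 in ΔE2 (SD, n = 2) and 13915 ± 5296 in WT (SD, n = 3), a ratio of 1.23. Values of the step did not overlap between the genotypes, and those of the rest did. Because the step lies in a locus chosen from this contrast, this is a description without a test. The share of other steps that do not overlap was not counted. Of the copy's reads the step held 66.0% in ΔE2 replicate 1 and 57.4% in ΔE2 2+3, against 21.6%, 22.7% and 40.2% in WT.

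**Figure D4:**
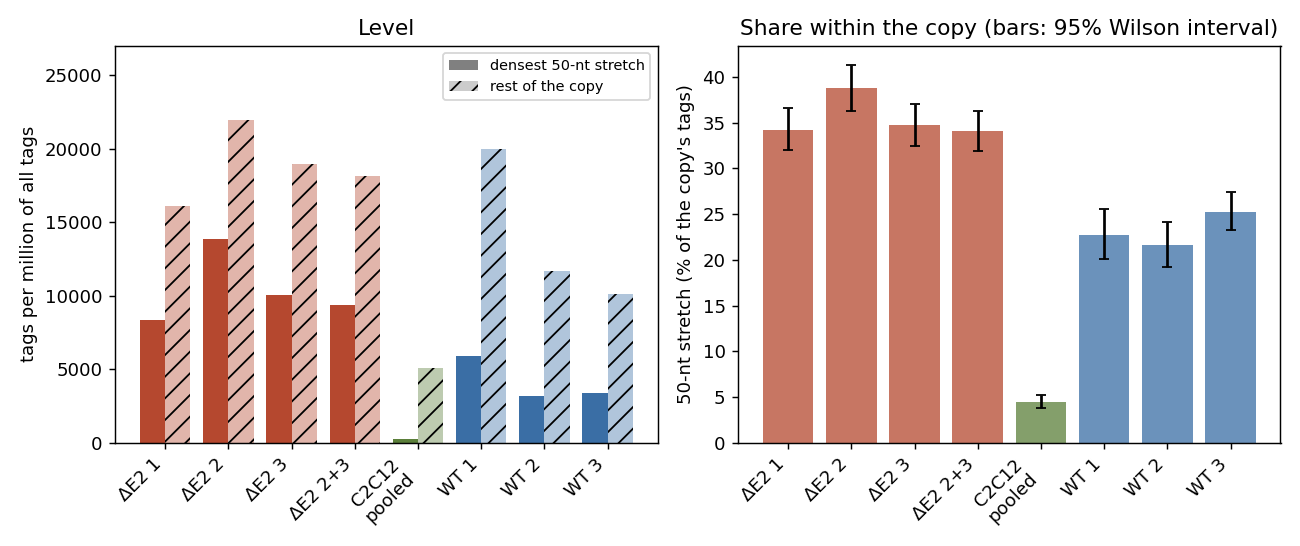
Left, tags per 1000000 of all tags that begin in the densest 50-nt step (solid) and on the rest of the 45S copy (hatched); right, that step as a percent of the copy's tags with 95% Wilson intervals. ΔE2 libraries (red) hold 34.1% to 38.8% there, pooled C2C12 (green) 4.46% and WT libraries (blue) 21.6% to 25.3%.

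Counted by position, the step was not larger in ΔE2. Its distinct positions numbered 47 in ΔE2 replicate 1 and 53 in ΔE2 2+3, against 55, 51 and 56 in WT. Counted once per position, it held 8.58% ± 0.707 of the copy's tags in ΔE2 (SD, n = 2) and 10.3% ± 1.45 in WT (SD, n = 3). The most used 5′ end of WT, at 39984129, had 92 and 89 tags in these ΔE2 libraries, 4 in C2C12 and 39, 45 and 68 in WT. At 39984121, the counts were 66 and 84 in ΔE2, 0 in C2C12 and 15, 26 and 49 in WT. Outside the step, the 5′ end at 39984452 had 34 and 23 tags in ΔE2, 3 in C2C12 and 21, 31 and 43 in WT.

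By level, 14 of the 24 bins held at least 20 forelimb tags and were compared between genotypes. In 4 of them both ΔE2 values lay above all WT values, beside 10.1% of 1137 bins of the genome with the same minimum. In 0 of them both ΔE2 values lay below all WT values, beside 38% of those bins. The 4 bins were the first of the copy and the 3 that run from 39983650 to 39984399. Without WT replicate 1, whose share is the highest of its group, 10 bins lay above. The share over bins of the genome was not counted for that comparison, where fewer libraries make non-overlap easier. Nothing is read from these counts, because the locus was singled out from the same comparison.

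C2C12 tags stood where forelimb tags were few at the upstream edge of the dense stretch. The bin at 3250 to 3500 nt held 6.13% of the copy's tags in C2C12 and 1.20%, 0.544% and 0.416% in WT. This bin was singled out after its values were seen. It was 5.70% to 6.61% in the 3 C2C12 colours. In level, C2C12 had 327 tags per 1000000 there, against 311, 80.9 and 56.3 in the WT libraries, so that WT replicate 1 was close to C2C12. The widest ratios of a bin's share in C2C12 to that in pooled WT were at bins with few WT tags. These were 20.2 at 1500 to 1750 nt, from 16 tags in C2C12 and 1 in WT, with an exact 95% counting interval of 3.13 to 846. They were 18.5 (5.92 to 93.1) at 5500 to 5750 nt, from 44 and 3 tags, and 11.3 (5.19 to 29.4) in the first bin, from 63 and 7 tags. In the other direction the ratio was 0.186 (0.154 to 0.224) at 4000 to 4250 nt, 0.699 (0.613 to 0.796) at 3500 to 3750 nt and 0.843 (0.654 to 1.08) at 3750 to 4000 nt. Tag lengths were not matched in these ratios.

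Leading 5′ ends also differed. The 3 most used in C2C12 lay at 39984416, 39984428 and 39984443, with 18, 15 and 12 tags. The WT libraries together had 0, 0 and 3 tags at these bases, and the compared ΔE2 libraries 0, 0 and 9. Set against all bins, 8 of the 20 bins of the copy with at least 20 tags in C2C12 and WT together were at least 2-fold lower per 1000000 in C2C12, beside 44% of 2167 bins of the genome. At least 2-fold higher in C2C12 were 3 of the 20, beside 25%. Both shares of the copy's bins lie below those of the genome, but they rest on only 20 bins and were not tested. No difference between the copy and the genome is read from them.

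Tag lengths differed between C2C12 and forelimb files. C2C12 tags spanned 26 to 30 nt. Lengths in the forelimb ran from 19 to 38 nt, with 35 nt the most common. On the copy, 81.9% of tags in ΔE2 replicate 1 and 84.2% in ΔE2 2+3 were 35 nt long, against 72.9%, 74.5% and 76.5% in WT. Elsewhere, 47.0% and 56.2% of ΔE2 tags and 50.3%, 42.3% and 41.2% of WT tags were. Among tags of 26 to 30 nt, the copy's share was 0.462% and 0.484% in these ΔE2 libraries, 0.534% in C2C12 and 1.57%, 0.474% and 0.408% in WT. With such tags alone, C2C12 lay within the range of the forelimb libraries. That count rests on 53 and 46 copy tags in ΔE2 and 89, 65 and 100 in WT. The step at 39984100 then held 3 tags in each ΔE2 library and 31, 10 and 9 in WT, so the profiles of such tags are sparse.

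Some steps of the dense stretch were empty in all sets. Of its 35 steps of 50 nt, 6 held no 5′ end in any forelimb library, 5 held none in C2C12, and 4 were empty in both. These 4 lie between 39983750 and 39984099. Whether tags from such bases could be placed uniquely was not tested, since no mm9 genome was used.

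Tests were made on 5 measures within the copy other than its share of all tags. One of them, the share of tags with a shared 5′ end, moves with the number of tags, being 77.4%, 82.7% and 89.0% in the WT libraries with 915, 1103 and 1682 copy tags. The median log2 reads per tag, copy minus rest, was 1.58, 1.58 and 2.39 in these libraries. Whether it is independent of the number of tags was not tested. Mean tag length was 34.2 ± 0.235 nt in ΔE2 (SD, n = 2) and 33.3 ± 0.210 nt in WT (SD, n = 3), at a two-sided exact permutation p of 0.1 (0.25 after Benjamini-Hochberg adjustment over the 5). Off the copy, mean lengths were 30.9 nt in ΔE2 and 30.1 nt in WT, so lengths differed by a similar amount there. The median log2 reads per tag, copy minus rest, was 4.79 ± 1.80 in ΔE2 (SD, n = 2) and 1.85 ± 0.47 in WT (SD, n = 3), for which the exact permutation p was 0.1 (adjusted 0.25). For both measures the ΔE2 libraries lay above the 3 WT libraries. The reads measure rests on medians. Mean reads per tag off the copy were 88.1 in ΔE2 replicate 1 and 513 in ΔE2 2+3, against 69.3, 89.9 and 60.6 in WT. The difference in log2 reads, 2.94, was 0.37 with each position counted once (exact permutation p = 0.6) and 0.82 with each 5′ end counted once (exact permutation p = 0.4). Tags upstream of the copy's midpoint were 4.48% ± 0.0638 in ΔE2 (SD, n = 2) and 4.21% ± 0.343 in WT (SD, n = 3), for which the exact permutation p was 0.4 (adjusted 0.5). Tags that shared their 5′ end with another were 85.9% ± 0.547 in ΔE2 (SD, n = 2) and 83.0% ± 5.82 in WT (SD, n = 3), for which the exact permutation p was 0.6 (adjusted 0.6). The share of tags on the opposite strand gave an exact permutation p of 0.4 (adjusted 0.5). No measure passed 0.05, which 10 splits of 5 libraries cannot reach, since 0.1 is the smallest p they allow. The replicates are labelled as biological.

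Other windows were ranked by how closely they followed the copy across the 5 compared libraries. Of 190 stranded windows of 5900 nt with at least 100 forelimb tags, the nearest by root mean square difference of centred log2 shares lay on chromosome 11, minus strand, 108868300 to 108874199. It had 3255 and 3819 tags per 1000000 in ΔE2 replicate 1 and ΔE2 2+3, against 3304, 2091 and 1432 in WT. As on the copy, WT replicate 1 lay above the other two WT libraries. Its difference from the copy was 0.15, where the median window differed by 0.72. The next were chromosome 8, minus strand, 3753900 to 3759799 (0.17), and the mitochondrial plus strand, 1500 to 7399 (0.18). Chromosome 4, plus strand, 153389700 to 153395599 (0.18), and chromosome 9, minus strand, 78023100 to 78028999 (0.24), followed. These windows were picked for their likeness over 5 libraries, which is a description.

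The mitochondrial plus strand, which carries the mitochondrial ribosomal RNAs, gave another comparison. Over that whole strand, tags numbered 1249 and 1384 per 1000000 in ΔE2 replicate 1 and ΔE2 2+3, 3130 in C2C12 and 932, 742 and 724 in WT. The copy held 19.6 and 19.9 tags per mitochondrial plus-strand tag in ΔE2, 1.70 in C2C12 and 27.7, 20.1 and 18.7 in WT. The ratio in both of these ΔE2 libraries thus lay within the WT range, as did replicate 3 alone at 19.3, while replicate 2 alone had 30.2. C2C12 had more mitochondrial and fewer 45S tags per 1000000 than any forelimb library. Tag lengths were not matched in these values. With tags of 26 to 30 nt alone, the copy's share in C2C12, 0.534%, lay within the forelimb range of 0.408% to 1.57%.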

How the data were processed

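The submitters' processing notes name Novoalign and the mm9 build for these libraries, among other tools, with no Novoalign version. The deposited files list 1 tag per line, with strand and a 5-base barcode. Forelimb files add the reads behind each tag, and the score column of the authors' files, whose meaning is not stated, was not used. Each forelimb file held 0 repeats of a position, strand and barcode. Repeats in the combined C2C12 file were counted once. The authors' table of exons holds no value for the copy and was not used.

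Tag counts, shares of all tags and the 250-nt bins, on a grid from the start of the copy, were made here. ΔE2 replicates 2 and 3 were merged as the union of their molecules. SDs are over libraries. Wilson intervals are at 95%. Exact permutation tests were two-sided, on the absolute difference of means over all splits. Computation used scipy 1.17.1, pandas 2.3.3, numpy 2.4.6 and Python 3.11.15, and plots matplotlib 3.10.9.

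The members, measures and comparisons were chosen with earlier results of these data known. Bins named are the 5 with most tags in WT and in C2C12, and the 3 with the widest ratio of C2C12 to WT each way. For 5′ ends the rule took the 3 most used in each, and for windows the 5 nearest to the copy. The 50-nt step and the 7-bin stretch were singled out after values were seen. No sequence is printed, because no mm9 genome was used.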

Additional observations from a re-analysis of the deposited data

How the results depend on the processing

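Of 165 values under alternatives, for 11 results, 13 reversed direction. Another 17 values of measures without a test moved beyond the spread or by over 1.5 times. The other 135 were classed as kept, though not always in size. They include values of 0 and values that the alternative could not alter, such as C2C12 against WT without a ΔE2 library. For the tested measures only a reversal could show, since no setting had enough libraries for a p below 0.05. The ΔE2 minus WT difference in the copy's share, 0.792 percentage points, was 0.0549 counted once per position, 0.0890 once per 5′ end, -0.343 with tags of 26 to 30 nt and 5.97 by reads. Leaving out each library gave 0.564 to 1.21. The log2 ratio of C2C12 to WT, -1.76, was -1.25 by 5′ end and -0.61 with tags of 26 to 30 nt, and -1.93 to -1.41 without each library. Bins above WT, 4, numbered 1 by position, 1 by 5′ end and 0 with tags of 26 to 30 nt, and 3 to 10 without each library. Bins below WT, 0, numbered 2 with tags of 26 to 30 nt and 1 with 100-nt bins, and 0 to 1 without each library. Genome shares were not counted under these alternatives, so nothing is read from the bin counts. The share in each library's own 5 densest bins differed by -0.394 percentage points between ΔE2 and WT. It differed by -3.60 by position, -3.05 by 5′ end and 0.392 as labelled, or -0.920 to 0.378 without each library. C2C12 minus WT it was -13.1, and -10.9 by 5′ end, -7.64 with tags of 26 to 30 nt and -16.9 placed by 5′ end, or -13.7 to -12.4 without each library. Among the 5 measures tested, no value passed 0.05, which no setting allowed. Reversed were shared 5′ ends (-8.47 by position, -18.3 with tags of 26 to 30 nt), tag length (-0.0316) and log2 reads per tag (-0.72) with tags of 26 to 30 nt. Log2 reads per tag, 2.94, were 0.37 by position and 0.82 by 5′ end, and shared 5′ ends, 2.90, were 0.0765 without WT replicate 1. The share upstream of the midpoint, 0.273, was 3.02 by position, 2.72 by 5′ end, 5.73 with tags of 26 to 30 nt and -0.191 as labelled, and -0.131 to 0.457 without each library. Causes were not tested beyond what each count leaves out. With same-numbered libraries as a replicate block, the share upstream of the midpoint was -0.191 (exact sign-flip p = 0.75) and tag length 1.00 nt higher in ΔE2 (p = 0.25, the smallest that 3 pairs allow). Same-numbered libraries did not deviate together (correlations -0.113, -0.0134 and -0.112 over 1263 bins), so no pairing by number was seen. With ΔE2 replicates 2 and 3 sharing most of their molecules, these correlations cannot settle whether libraries were paired. A ΔE2 arm without replicate 1 held 1 library, so its spread was not known.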

Other observations

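ΔE2 replicate 3 is the one library whose tags are named from 2 lanes of the run. Of its tags named from lane 7, 3.42% lay on the 45S copy (1598 of 46748). Of those named from lane 8, 0.970% did (120 of 12367). In the other forelimb libraries, with 1 lane each, the share was 1.35% to 3.58%. A tag is named from 1 read only, so that the lane of its other reads is not given.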
